A study of Mus musculus with 10 samples.

Results

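The genes described here are 10 components of the NF-kappaB system: the subunit genes Nfkb1, Nfkb2, Rel and Relb, the inhibitor genes Nfkbia, Nfkbie, Nfkbiz and Bcl3, and the ubiquitin pathway genes Tnfaip3 and Birc3. They were found by symbol in the deposited table, and all 10 were present among its 30984 genes. All 10 also passed the filter on low counts, which left 17268 genes for testing. Messenger RNA of mouse blood had been sequenced in 10 libraries, for a series whose title concerns burn wound healing, the alpha-v integrin and manganese chloride. The treatment label is burn wound healing in 6 libraries, called M here after their titles, and burn wound healing-NC in 4 libraries, called N. The labels do not expand NC. They name no strain, genotype, age or time, do not say which libraries, if any, received manganese chloride, and do not say whether libraries came from separate mice. The p-values therefore measure only the spread between these libraries, which may be technical.

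Library totals ran from 30677206 to 36379663 counts, and each of the 10 genes had at least 591 counts in every library. Counting error was not set beside the spread between libraries for each gene. It matters most where that spread is small, as for Relb, with 811 to 1231 counts a library. The labels carry whole blood, lymphocyte and monocytes side by side, and the series title speaks of PBMCs, the mononuclear cells of blood. Markers of red cells, lymphocytes, monocytes, neutrophils and platelets were all present in every library. Marker levels are given as CPM, the count relative to the library size, scaled here by TMM factors. The summed red cell marker level was 87948 to 138765 CPM in M libraries and 76927 to 147976 CPM in N libraries. Red cell, neutrophil and platelet messages were thus part of what was measured in each library. In such bulk samples, fewer cells of a type and less RNA per cell cannot be told apart.

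NF-kappaB is a family of dimeric transcription factors that switch on inflammatory and survival genes in leukocytes. In resting cells the dimers are held in the cytoplasm by IkB proteins. When tumour necrosis factor, interleukin-1 or Toll-like receptors are engaged, the IKK kinase complex marks the IkB proteins for destruction and the dimers enter the nucleus. A slower branch, used by receptors such as CD40 and the BAFF receptor of B cells, matures the Nfkb2 product and releases dimers with RelB. Several inhibitors are themselves NF-kappaB target genes, and so close feedback loops.

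A match to the kappaB consensus, the DNA element that NF-kappaB dimers bind, lay near the start of most of these genes. RefSeq promoter windows (GRCm38.p6, from 250 bases before to 50 bases after a gene start) were matched by symbol for 7 of the 10 genes, and not for Nfkb1, Relb or Nfkbiz. Each window was searched on both strands for the kappaB consensus, and overlapping matches were counted once. A match was present for 6 of these 7 genes, the exception being Birc3, whose window held none. Counted by window, 8 of the 10 windows of these genes held a match, and overlapping Nfkb2 windows shared a match. Among all 32851 windows of the table, 4.505% held a match. The genes are textbook NF-kappaB regulators, so this is a description of the windows and not a test. The 250 bases before the start are shown for Nfkbia, Rel and Nfkbie, with the match in capitals, and shorter stretches for Tnfaip3 and Nfkb2. All run 5' to 3' on the gene's strand.
Nfkbia, chr12:55492648-55492897, minus strand: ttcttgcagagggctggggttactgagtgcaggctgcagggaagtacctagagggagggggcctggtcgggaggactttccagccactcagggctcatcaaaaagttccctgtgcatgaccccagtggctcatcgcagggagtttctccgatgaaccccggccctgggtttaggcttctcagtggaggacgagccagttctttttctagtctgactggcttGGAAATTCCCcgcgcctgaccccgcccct
Rel, chr11:23770970-23771219, minus strand: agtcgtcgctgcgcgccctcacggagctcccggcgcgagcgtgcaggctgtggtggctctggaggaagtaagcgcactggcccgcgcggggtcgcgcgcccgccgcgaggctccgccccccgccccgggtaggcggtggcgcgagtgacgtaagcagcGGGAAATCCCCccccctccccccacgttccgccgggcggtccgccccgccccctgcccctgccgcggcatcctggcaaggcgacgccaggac
Nfkbie, chr17:45555450-45555699, plus strand: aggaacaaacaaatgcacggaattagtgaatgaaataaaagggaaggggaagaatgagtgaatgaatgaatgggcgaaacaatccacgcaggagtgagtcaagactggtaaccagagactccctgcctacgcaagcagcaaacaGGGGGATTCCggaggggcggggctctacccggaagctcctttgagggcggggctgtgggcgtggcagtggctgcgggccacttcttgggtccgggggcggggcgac
Tnfaip3, chr10:19015403-19015432, minus strand: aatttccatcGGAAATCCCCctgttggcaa
Nfkb2, chr19:46304688-46304717, plus strand: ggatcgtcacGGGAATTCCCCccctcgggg
Positions are counted from the start that RefSeq gives. The Nfkbia match began 29 bases before it, and the shown Tnfaip3 match 12 bases before it. The Tnfaip3 window held another match 125 bases before the start, and the Nfkb2 windows held several. The RefSeq starts used for Tnfaip3 and Nfkb2 lie inside the GENCODE spans of these genes given with their values, so both stretches lie within the gene as GENCODE draws it. Of the 250 bases before those starts, 110 for Tnfaip3 and 250 for Nfkb2 fall in GENCODE exons.

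Compared per length, Nfkbia and Tnfaip3 stood far above the other 8 genes. The deposited FPKM values (counts relative to gene length and library total) put Nfkbia first, at 143 ± 18.1 FPKM in M libraries (SD, n = 6) and 136 ± 68.1 FPKM in N libraries (SD, n = 4). Tnfaip3 came next, at 99.7 ± 19.9 FPKM in M and 73.1 ± 12.9 FPKM in N. Birc3 followed at 39.5 ± 3.02 FPKM in M and 33.0 ± 8.0 FPKM in N. Nfkbiz averaged 28.1 FPKM in M and 29.8 FPKM in N, and Rel 25.9 FPKM in M and 20.9 FPKM in N. The 2 precursor genes lay side by side in FPKM. Nfkb1 stood at 20.8 FPKM in M and 18.2 FPKM in N, and Nfkb2 at 19.8 FPKM in M and 16.6 FPKM in N. The deposited values imply a length of 12061 bases for Nfkb1 and 4584 for Nfkb2, and this closeness depends on those lengths. Counts ran from 6067 to 9686 a library for Nfkb1 and from 1996 to 3716 for Nfkb2. The lowest were Bcl3, at 12.1 FPKM in M and 12.6 FPKM in N, Nfkbie, at 9.45 FPKM in M and 8.32 FPKM in N, and Relb, at 7.94 FPKM in M and 7.19 FPKM in N. The order of the group means was the same in M and in N. Nfkbia exceeded Tnfaip3 in 10 of 10 libraries, Tnfaip3 exceeded Birc3 in 10 of 10, and Nfkb2 exceeded Bcl3 in 10 of 10. Neighbours in the middle changed places between libraries: Nfkbiz exceeded Rel in 5 of 10 libraries and Nfkb1 exceeded Nfkb2 in 7 of 10. For comparison, Rela, the gene of the main activating subunit p65, stood at 29.8 ± 2.21 FPKM in M and 27.8 ± 2.63 FPKM in N.

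The comparison of M with N asked whether the NF-kappaB genes differed between the treatment labels, and none of them passed the test. Levels here and below are CPM scaled by TMM factors, and differences are log2 values of M minus N from edgeR's quasi-likelihood test, adjusted over all 17268 genes by the Benjamini-Hochberg method. Of the 10 genes, 0 had an adjusted p under 0.05, the same as the background of 0% of all genes. DESeq2 also called 0 of the 10, where it called 0.493% of all genes. At an unadjusted p under 0.05 in edgeR there was 1 gene of 10, Tnfaip3, against 11.3% of all genes, and a share of 1 in 10 is near that background. M and N libraries overlapped for all 10 genes, where 2.03% of all genes did not overlap, 1.34% with M higher and 0.683% with M lower. Differences were above 0 for 8 of 10 genes, with a median of 0.14, while 54.7% of all genes lay above 0, with a median of 0.02.

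**Figure D1:**
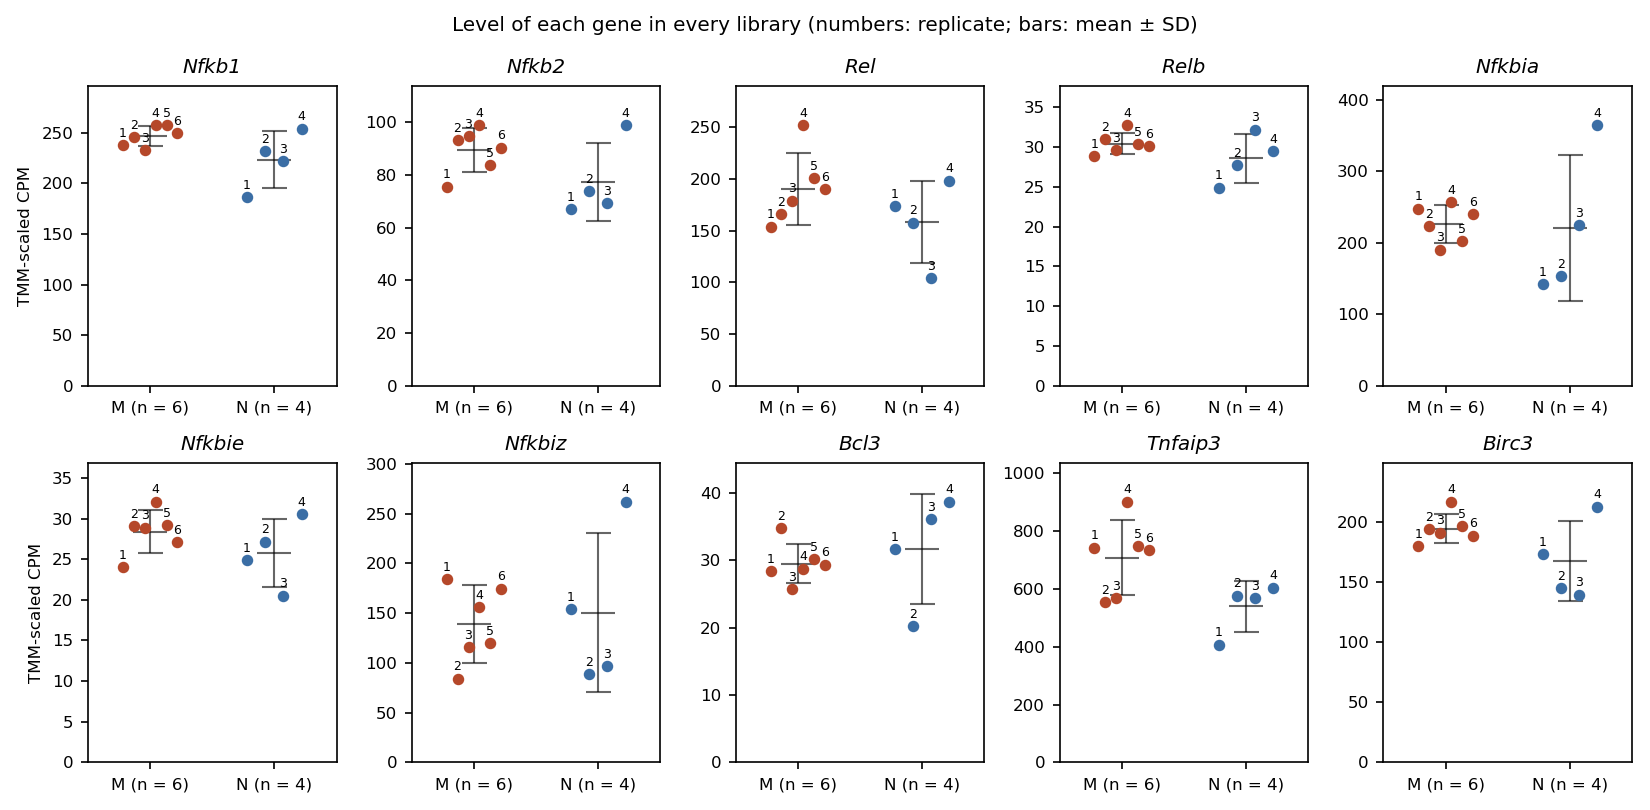
Level of each of the 10 genes (TMM-scaled CPM, linear axes from 0) in 6 M libraries and 4 N libraries, with the replicate number over each point and bars for mean ± SD. The groups overlap in every panel, and library N4 is the highest point for Nfkbia, Nfkbiz, Bcl3 and Nfkb2.

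**Figure D2:**
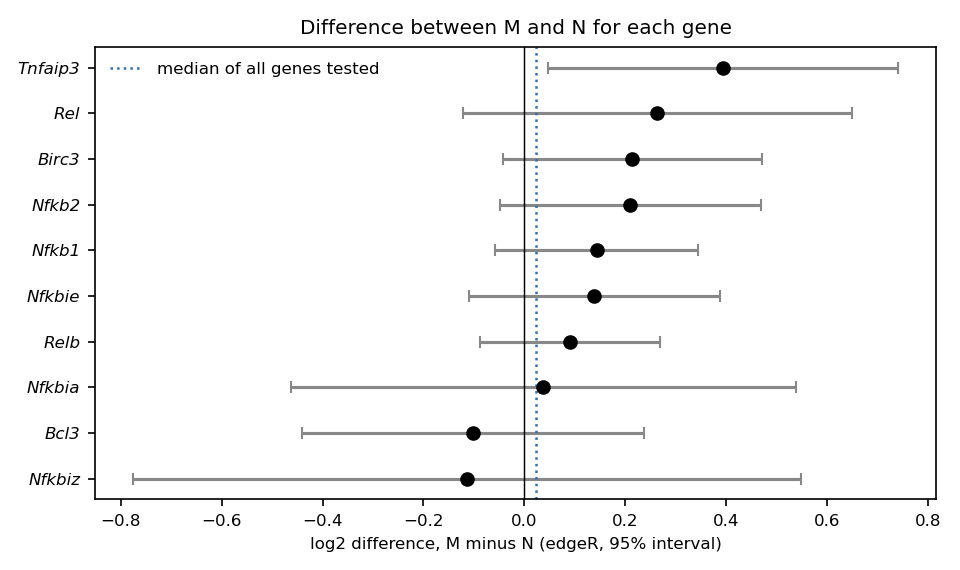
Log2 difference of M minus N (points, edgeR) with its 95% interval (bars) for each gene, and the median of all genes tested as a dotted line. Only the interval of Tnfaip3 lies wholly above 0, from 0.05 to 0.74, before adjustment over all genes.

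Tnfaip3 had the largest difference of the 10. It encodes A20, a ubiquitin-editing enzyme that shuts off signalling from the tumour necrosis factor and Toll-like receptors (ENSMUSG00000019850; mm10 chromosome 10, 19000910 to 19015657, minus strand). Tnfaip3 ranged from 555 to 902 CPM in M libraries, with a median of 739, against 407, 577, 569 and 605 CPM in libraries N1 to N4. In 4 of 6 M libraries it exceeded the highest N library, while M2 and M3 lay among the N libraries. Its mean was 709 ± 129.7 CPM in M (SD, n = 6) and 539.7 ± 89.5 CPM in N (SD, n = 4). The log2 difference was 0.39 (SE 0.16, 95% interval 0.05 to 0.74), with an unadjusted edgeR p of 0.030 and an adjusted p of 0.41. A two-sided exact permutation test over the libraries, with 210 arrangements, gave p = 0.067 on log2 CPM and p = 0.048 on log2(FPKM + 1), where the smallest possible p is 0.0048. The difference kept its direction under all 24 alternatives run, between 0.28 without N1 and 0.46 without both N2 and N3.

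Birc3 encodes cIAP2, a ubiquitin ligase of the tumour necrosis factor receptor complex (ENSMUSG00000032000; chromosome 9, 7848699 to 7873186, minus strand). It ranged from 180.2 to 217 CPM in M libraries, with a median of 193, against 174, 145, 139.8 and 213 CPM in N1 to N4. M libraries sat close together, while N2 and N3 were low and N4 reached the level of the highest M library. The log2 difference was 0.21 (SE 0.12, 95% interval -0.04 to 0.47), with an edgeR adjusted p of 0.50. It depended on which N libraries were counted, at 0.45 without both N1 and N4 (adjusted p 0.099) and -0.01 without both N2 and N3.

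Among the subunits, Nfkb1 encodes p105, which is both an IkB-like inhibitor and the precursor of the p50 subunit (ENSMUSG00000028163; chromosome 3, 135584655 to 135691547, minus strand). Nfkb1 ranged from 233 to 258 CPM in M libraries, with a median of 248, against 186, 232, 222 and 254 CPM in N1 to N4. All 6 M libraries exceeded N1, N2 and N3, and 2 of them exceeded N4. The log2 difference was 0.14 (SE 0.09, 95% interval -0.06 to 0.34), the edgeR adjusted p was 0.57, and the exact permutation p was 0.062. Nfkb2, the precursor of p52 in the slower branch (ENSMUSG00000025225; chromosome 19, 46304320 to 46312385, plus strand), ranged from 75.5 to 98.8 CPM in M libraries, with a median of 91.7, against 66.9, 73.9, 69.2 and 98.8 CPM in N1 to N4. The same layout appeared, with N4 level with the highest M library and the other N libraries under the lowest. Its log2 difference was 0.21 (SE 0.12, 95% interval -0.05 to 0.47) with an edgeR adjusted p of 0.51, and 0.30 with an adjusted p of 0.16 without N4.

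Rel encodes c-Rel, a subunit prominent in lymphocytes (ENSMUSG00000020275; chromosome 11, 23736847 to 23770970, minus strand). Rel ranged from 154.0 to 252 CPM in M libraries, with a median of 185, against 174, 158, 104 and 198 CPM in N1 to N4. M4 was high and N3 low, and the other libraries of both groups overlapped. The log2 difference was 0.26 (SE 0.18, 95% interval -0.12 to 0.65) with an edgeR adjusted p of 0.59, and it was 0.08 without N3. Relb, the partner of p52 (ENSMUSG00000002983; chromosome 7, 19606217 to 19629438, minus strand), varied least of the 10. It ranged from 28.8 to 32.7 CPM in M libraries, with a median of 30.2, against 24.9, 27.7, 32.1 and 29.4 CPM in N1 to N4. Its log2 difference was 0.09 (SE 0.08, 95% interval -0.09 to 0.27), with an edgeR adjusted p of 0.70.

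The cytoplasmic inhibitor Nfkbia, which encodes IkB-alpha and is the quickest feedback gene of the pathway (ENSMUSG00000021025; chromosome 12, 55489410 to 55492647, minus strand), gave equal group means from very unequal libraries. Nfkbia ranged from 190.3 to 257 CPM in M libraries, with a median of 231, against 142, 153, 224 and 364 CPM in N1 to N4. N1 and N2 lay under every M library, and N4 lay over every M library. The means were 227 ± 26.3 CPM in M (SD, n = 6) and 221 ± 102 CPM in N (SD, n = 4). The log2 difference was 0.04 (SE 0.23, 95% interval -0.46 to 0.54), with an edgeR adjusted p of 0.97. It was 0.34 without N4 and -0.13 without N2, so its direction changed with single libraries. Nfkbie, the gene of IkB-epsilon (ENSMUSG00000023947; chromosome 17, 45555703 to 45563169, plus strand), ranged from 24.0 to 32.1 CPM in M libraries, with a median of 28.95, against 24.9, 27.1, 20.5 and 30.6 CPM in N1 to N4. Only N3 lay outside the M range, on the low side. Its log2 difference was 0.14 (SE 0.11, 95% interval -0.11 to 0.39), with an edgeR adjusted p of 0.67.

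The nuclear IkB genes had differences below 0. Nfkbiz encodes IkB-zeta, which joins p50 on secondary response genes (ENSMUSG00000035356; chromosome 16, 55811375 to 55838899, minus strand). It ranged from 84.0 to 184 CPM in M libraries, with a median of 138, against 154, 88.9, 96.5 and 262 CPM in N1 to N4. Nfkbiz was the most variable of the 10, lying between -0.68 in M2 and 0.96 in N4 on the log2 scale relative to its mean. Its log2 difference was -0.11 (SE 0.30, 95% interval -0.78 to 0.55) with an edgeR adjusted p of 0.92, and it was 0.24 without N4. Bcl3 encodes an IkB family protein that works in the nucleus with p50 and p52 (ENSMUSG00000053175; chromosome 7, 19808462 to 19822770, minus strand). It ranged from 25.7 to 34.7 CPM in M libraries, with a median of 29.0, against 31.6, 20.2, 36.1 and 38.7 CPM in N1 to N4. N2 was the lowest library and N3 and N4 the highest, on either side of the M range. Its log2 difference was -0.10 (SE 0.16, 95% interval -0.44 to 0.24), with an edgeR adjusted p of 0.84. Exons of Nfkb2 and Bcl3 overlap genes on the opposite strand, and the handling of strand in counting is not given in the sources used here, so such reads cannot be told apart. Psd, opposite Nfkb2, had 393 to 747 counts a library, against 1996 to 3716 for Nfkb2, and Gm16175, opposite Bcl3, had 0 to 4.

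N libraries were more spread than M libraries, a contrast that was not tested. For 9 of the 10 genes, Tnfaip3 being the exception, the SD of log2 CPM was larger in N than in M. The median SD over the 10 genes was 0.14 in M and 0.27 in N, and over all genes tested 0.21 in M and 0.34 in N, so the wider spread of N was shared with the rest of the transcriptome. Each N library departed in its own way. N4 was the highest of all 10 libraries for 4 genes, Nfkbia, Nfkbiz, Bcl3 and Nfkb2, and N1 was the lowest for 5 genes. N3 was the lowest for Rel, Nfkbie and Birc3, and N2 for Bcl3. Among M libraries, M4 was the highest of all libraries for 5 genes. The 10 genes together took 0.163% to 0.231% of counts in M libraries, against 0.136%, 0.144%, 0.142% and 0.216% in N1 to N4. Mitochondrial ribosomal RNA, a share that can vary with library quality, took 1.39% to 2.60% of counts in M libraries, against 6.53%, 3.27%, 3.48% and 1.30% in N1 to N4. N1, N2 and N3 thus had the lowest shares of the 10 genes and the highest of this RNA, whose part in the differences was not tested.

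**Figure D3:**
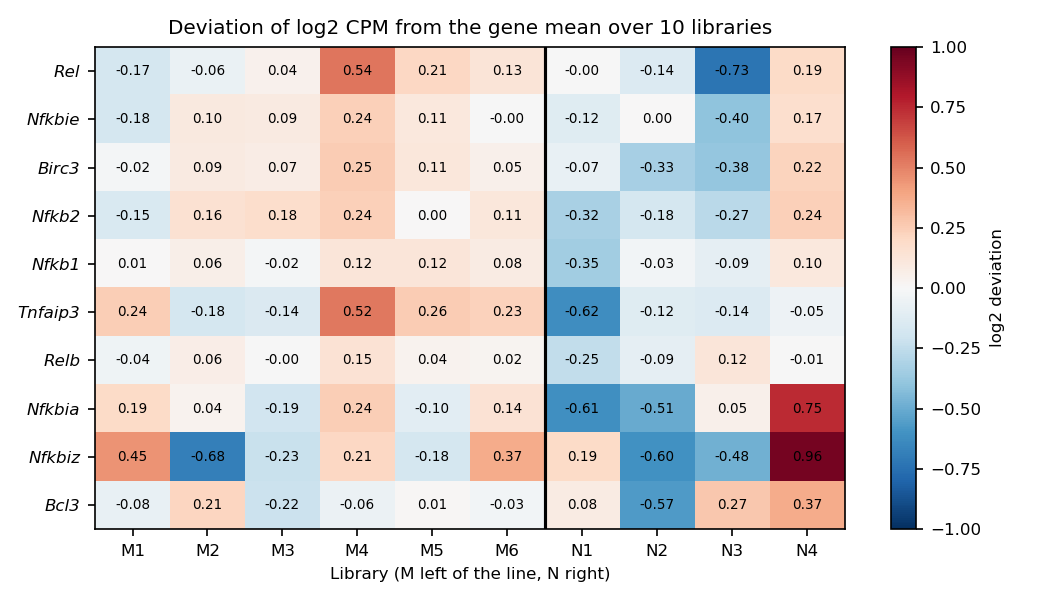
Deviation of log2 CPM from each gene's mean over 10 libraries, with M libraries left of the line and N libraries right of it. M4 is above the mean for 9 of 10 genes, and N4 reaches 0.96 for Nfkbiz and 0.75 for Nfkbia, while N3 has its lowest value, -0.73, for Rel.

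Across libraries the 10 genes fell into partly separate patterns. Of 45 pairs, 41 had a positive Pearson correlation of log2 CPM, and 7 had an adjusted p under 0.05 over the 45 in a permutation test with 100000 draws. The same shares over all gene pairs were not computed, so whether these counts are particular to the 10 genes is not known. All points share their library and its depth. Rel and Nfkbie had the highest correlation (r = 0.90, permutation p = 0.00063, adjusted p = 0.014, and Spearman's rho = 0.83, permutation p = 0.0048, adjusted p = 0.043). Without M4 and N3, the libraries farthest from the median of Rel, r was 0.65, and with the group means removed it was 0.88. Nfkbie and Birc3 followed each other likewise (r = 0.81, permutation p = 0.0054, adjusted p = 0.035, and rho = 0.92, permutation p = 0.00054, adjusted p = 0.024), with r = 0.73 without M1 and N3. Nfkb1 and Tnfaip3 had r = 0.82 (permutation p = 0.0035, adjusted p = 0.026) and rho = 0.76 (permutation p = 0.015, adjusted p = 0.075), with r = 0.59 without N1 and N3. None of the pairs of Relb, Nfkbia, Nfkbiz or Bcl3 had an adjusted p of r under 0.05. Bcl3 had r = -0.12 against Rel and -0.13 against Tnfaip3, but 0.58 against Nfkbia (permutation p = 0.080, adjusted p = 0.23). The lowest r of all pairs, -0.16, was that of Relb and Nfkbiz.

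Genes most like Nfkbia over the 10 libraries, among 10235 genes with a mean of at least 5 CPM, were Ip6k1 (r = 0.94), the immediate early nuclear protein gene Csrnp1 (0.94), Gba2 (0.92), Dedd2 (0.91) and Rgs14 (0.91). Those most like Nfkb1 were Ripor1 (0.98), Nfatc2ip (0.96), Sgms1 (0.96), Cep89 (0.95) and Oas1g (0.94). These are the highest of 10235 correlations over 10 libraries and are given as a description.

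Blood cell markers moved with several of the genes. All 12 B cell markers had values above 0 in the comparison, where 54.7% of all genes did. Their summed level was 2559 to 3802 CPM in M libraries, against 2564, 2393, 2357 and 3191 CPM in N1 to N4. All 12 markers of natural killer and cytotoxic cells were below 0, where 45.3% of all genes were. Their sums were 306 to 450 CPM in M libraries, against 495, 845, 877 and 269 CPM in N1 to N4. Over 90 pairs of a marker list and a gene, 6 had an adjusted p under 0.05 in the permutation test of r. The share for other genes was not computed. Birc3 followed the mean log2 level of the B cell list (r = 0.88, permutation p = 0.00022, adjusted p = 0.0099, and rho = 0.90, permutation p = 0.00081, adjusted p = 0.044). It ran against the cytotoxic list (r = -0.95, permutation p = 0.00022, adjusted p = 0.0099, and rho = -0.87, permutation p = 0.0023, adjusted p = 0.053). Without the 2 libraries farthest from the median of the list, r was 0.78 for B cells and -0.80 for cytotoxic cells. Nfkbie had r = 0.87 with the B cell list (permutation p = 0.00051, adjusted p = 0.015, and rho = 0.84, permutation p = 0.0038, adjusted p = 0.068). Rel had r = 0.78 (permutation p = 0.0028, adjusted p = 0.044, and rho = 0.77, permutation p = 0.013, adjusted p = 0.13). Without M4 and N3 these were 0.76 for Nfkbie and 0.53 for Rel. Nfkb2 ran against the cytotoxic list (r = -0.83, permutation p = 0.0023, adjusted p = 0.044, and rho = -0.89, permutation p = 0.00098, adjusted p = 0.044), with r = -0.85 without N2 and N3. The part of these cells in the differences of Birc3, Nfkb2, Nfkbie and Rel was not tested.

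**Figure D4:**
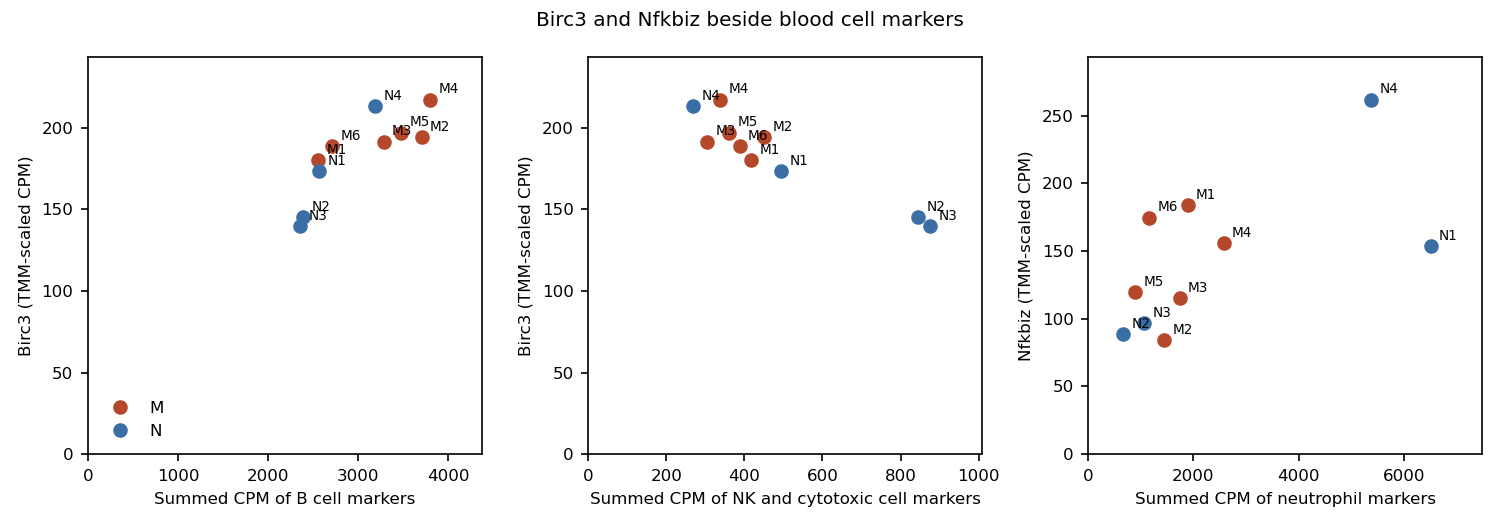
TMM-scaled CPM of Birc3 against the summed CPM of B cell markers (left) and of cytotoxic cell markers (middle), and of Nfkbiz against neutrophil markers (right), with each point a library. N2 and N3 have the lowest Birc3 levels and the highest cytotoxic marker sums, at 845 and 877 CPM, and N1 and N4 have the highest neutrophil marker sums, at 6512 and 5374 CPM.

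Neutrophil and platelet markers differed most between N libraries. All 15 neutrophil markers were below 0, where 45.3% of all genes were. Their summed level was 884 to 2572 CPM in M libraries, against 6512, 667, 1067 and 5374 CPM in N1 to N4. All 11 tested platelet markers of 12 were below 0, the untested one, Gp1bb, being at or near 0 counts, with sums of 2587 to 5300.2 CPM in M libraries, against 12441, 6696, 6110.5 and 2989 CPM in N1 to N4. Nfkbiz had r = 0.69 with the neutrophil list (permutation p = 0.029, adjusted p = 0.14, and rho = 0.59, permutation p = 0.081, adjusted p = 0.33). Nfkb1 had r = -0.86 with the platelet list (permutation p = 0.0029, adjusted p = 0.044, and rho = -0.72, permutation p = 0.024, adjusted p = 0.16), and r = -0.53 without M4 and N1. Against the same list, Nfkbia had r = -0.84 (permutation p = 0.0045, adjusted p = 0.052), and r = -0.88 without M4 and N1. Tnfaip3 had r = -0.82 (permutation p = 0.0065, adjusted p = 0.055), and r = -0.31 without M4 and N1. Nfkb2 had r = -0.76 (permutation p = 0.00465, adjusted p = 0.052), and r = -0.57 without M4 and N1. The weakest r with the platelet list was that of Bcl3, at -0.13. With the neutrophil level as a covariate in edgeR, the log2 difference of Nfkbiz was 0.21 (adjusted p 0.76), that of Birc3 0.31 (adjusted p 0.43) and that of Tnfaip3 0.37 (adjusted p 0.46). The part of platelets was not tested.

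Markers of connective tissue, skin and vessel cells also differed in 1 direction. All 8 tested of 10 had differences below 0, where 45.3% of all genes did, and Krt5 and Krt14 were at or near 0 counts. Summed levels, mostly of the vessel and platelet gene Pecam1, were 216 to 265 CPM in M libraries, against 493, 256, 265 and 240.4 CPM in N1 to N4. DESeq2 called 3 of the 8, where it called 0.493% of all genes, and edgeR called 0. The 3 were the collagen genes Col1a1 and Col1a2 and the matrix gene Lum. Lum ranged from 0.0532 to 0.824 CPM in M libraries, against 1.66, 1.04, 1.60 and 1.14 CPM in N1 to N4. Its groups did not overlap, with M lower as for 0.683% of all genes. Nfkb2 had r = -0.74 with this list (permutation p = 0.021, adjusted p = 0.13, and rho = -0.52, permutation p = 0.13, adjusted p = 0.45), and r = -0.55 without M4 and N1. Nfkb1 had r = -0.69 (permutation p = 0.013, adjusted p = 0.089, and rho = -0.53, permutation p = 0.12, adjusted p = 0.44), and r = -0.38 without M4 and N1. Relb had r = -0.67 (permutation p = 0.025, adjusted p = 0.13, and rho = -0.67, permutation p = 0.040, adjusted p = 0.19), and r = -0.27 without M4 and N1. The part of these cells was not tested.

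Upstream of the subunits, the receptor and adaptor genes were evenly divided. Of 20 listed, 11 lay above 0 and 9 below it, with a median log2 difference of 0.02, and 0 were called by edgeR or DESeq2. At an unadjusted p under 0.05 there were 2, both below 0, where 7% of all genes were below 0 at that level. Tnfrsf1a, the main receptor of tumour necrosis factor, ranged from 63.6 to 75.2 CPM in M libraries, against 97.3, 69.9, 77.5 and 110.5 CPM in N1 to N4. Il1rap, the shared chain of interleukin-1 receptors, ranged from 22.9 to 26.2 CPM in M libraries, against 47.0, 20.2, 23.4 and 68.5 CPM. N1, N3 and N4 lay over every M library for Tnfrsf1a, and N1 and N4 for Il1rap. N1 and N4 also had the highest neutrophil marker sums, whose part was not tested. Traf6, an adaptor ubiquitin ligase, averaged 101 ± 4.35 CPM in M (SD, n = 6) and 91.1 ± 6.4 CPM in N (SD, n = 4), with an edgeR adjusted p of 0.46.

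The kinase genes were mostly above 0. In the list of the IKK complex and its activating kinases, 14 of 20 lay above 0, where 54.7% of all genes did, with a median of 0.08, and 0 were called by edgeR or DESeq2. At an unadjusted p under 0.05 there were 2, both above 0, where 4.25% of all genes were. Map3k14 encodes NIK, the kinase that starts the slower branch. It ranged from 69.4 to 89.7 CPM in M libraries, against 42.1, 60.5, 66.2 and 70.4 CPM in N1 to N4, and only M1 lay inside the N range. The difference was 0.36 on the log2 scale (SE 0.13), with an edgeR adjusted p of 0.40. Map3k7, the gene of the TAK1 kinase, averaged 88.4 ± 5.33 CPM in M (SD, n = 6) and 79.2 ± 6.81 CPM in N (SD, n = 4), with an edgeR adjusted p of 0.48.

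Of the other family members, Rela and Nfkbib had differences of 0.05 and 0.01, and Nfkbid, which encodes the nuclear protein IkB-NS, had -0.26 with an edgeR adjusted p of 0.40. Nfkbid ranged from 22.9 to 29.7 CPM in M libraries, against 29.98, 29.0, 27.0 and 36.6 CPM in N1 to N4. Among 16 other negative regulators, 8 lay above 0 and 8 below it, with a median of -0.002. The edgeR test called 0 of them and DESeq2 called 1, where it called 0.493% of all genes. The 1 was Rnf11, a partner of A20 in its ubiquitin-editing complex. Rnf11 ranged from 148 to 168 CPM in M libraries, against 258, 238, 200.3 and 184 CPM in N1 to N4, so the groups did not overlap, with M lower as for 0.683% of all genes. The log2 difference of Rnf11 was -0.49 (SE 0.10), with an adjusted p of 0.39 in edgeR and 0.0053 in DESeq2. Cyld, named because its groups also did not overlap, with M higher as for 1.34% of all genes, encodes a deubiquitinase that restrains the pathway. It ranged from 180.2 to 199.8 CPM in M libraries, against 177, 174.7, 152.6 and 177 CPM in N1 to N4, with an edgeR adjusted p of 0.45. Otud7b and Birc2 also had differences below 0, at -0.86 and -0.54, and N1 stood far over the other N libraries, with 535 CPM of Otud7b and 238 CPM of Birc2. The other N libraries held 115 to 139 CPM of Otud7b and 94.7 to 102 CPM of Birc2, inside the M range.

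The induced target genes lay mostly below 0. Of 33 tested from a list of 34, 22 lay below 0, where 45.3% of all genes did, with a median log2 difference of -0.31. At an unadjusted p under 0.05 there were 5 below 0 and 0 above it, where 7% of all genes were below 0 and 4.25% above it. By edgeR or DESeq2, 0 were called. Il1b, the gene of interleukin-1 beta, ranged from 36.1 to 152 CPM in M libraries, against 300.3, 38.9, 81.1 and 641 CPM in N1 to N4. Csf1, the gene of the monocyte growth factor, ranged from 12.3 to 17.6 CPM in M libraries, against 33.7, 10.9, 13.3 and 36.3 CPM. Both stood high in N1 and N4 alone, the libraries with the highest neutrophil marker sums. Rnf19b, a ubiquitin ligase gene, ranged from 140.4 to 160 CPM in M libraries, against 332, 178, 192 and 149.9 CPM. Ccl5, chosen after its values were seen, is a chemokine of cytotoxic lymphocytes. It ranged from 106 to 217 CPM in M libraries, against 115, 416, 471 and 91.9 CPM, and was high in N2 and N3, the libraries with the highest cytotoxic marker sums. The part of these cells in the target gene differences was not tested.

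**Figure D5:**
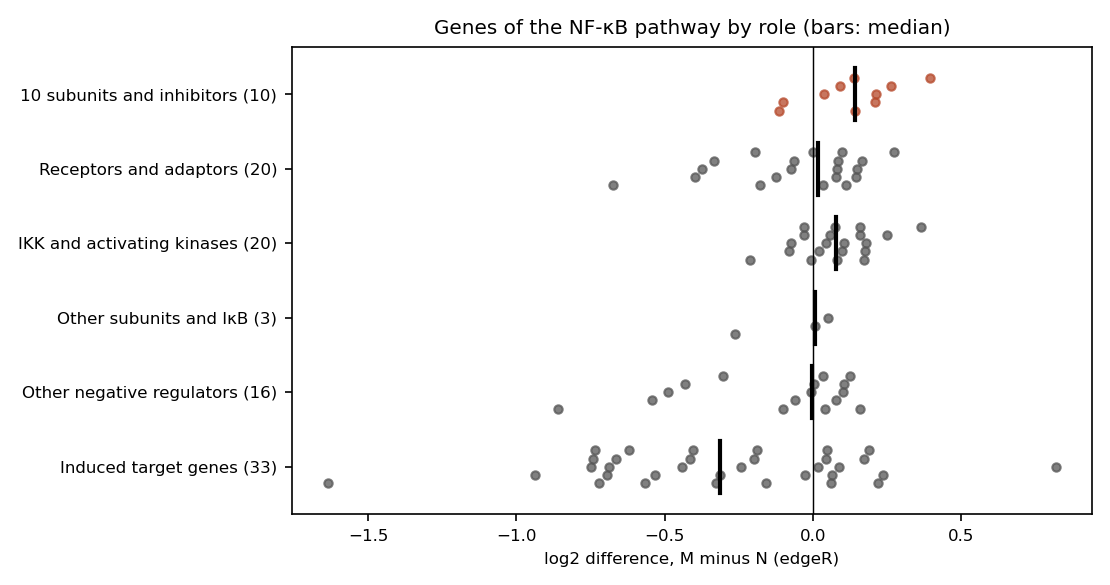
Log2 difference of M minus N (edgeR) of each tested gene, by role in the pathway, with the number of genes beside each name and a bar at the median. The medians are 0.14 for the 10 subunits and inhibitors, 0.08 for the kinases and -0.31 for the induced target genes.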

How the data were processed

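The authors deposited 1 table, whose columns hold counts and FPKM for each library, per the file headers. Every deposited FPKM value was recovered from its count, the library total and 1 length per gene to a relative error of 5.2e-15. The submitters' processing notes name the build mm10. How reads were aligned and counted is not given in the sources used here. Positions of genes came from GENCODE mouse release M21, on the same build, and promoter windows from RefSeq on GRCm38.p6.

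Low genes were dropped with filterByExpr (minimum count 10). edgeR 4.0.16 in R 4.3.3 compared M with N by its quasi-likelihood test after TMM scaling, without covariates. log2 CPM used a prior count of 1. Alternatives used DESeq2 1.42.0 and limma 3.58.1, among others given in the closing section. The edgeR step was tested on simulated counts. Replicates were compared by chi-square, whose lowest value per degree of freedom was 15.7 in M and 77.3 in N, so no pair matched within sampling noise.

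Library totals ran from 30677206 to 36379663 counts, which sets the counting precision. The 10 genes and the gene lists were chosen with earlier results of these data known. All 10 genes were named. From each pathway list the 3 genes with the smallest p were named, except 1 gene that is not reported here. Genes like Nfkbia and Nfkb1 were the 5 with the highest correlation.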

Additional observations from a re-analysis of the deposited data

How the results depend on the processing

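None of the 10 genes passed the adjusted threshold in edgeR or under any of 24 alternatives, of which 3 were chosen after seeing the data: leaving out N1 and N4 together, leaving out N2 and N3 together, and using replicate numbers 1 to 4 without a block. Of 240 differences of the 10 genes under alternatives, 228 kept their direction and 12 were reversed. Those of Nfkb1, Nfkb2, Rel, Relb, Nfkbie and Tnfaip3 kept it in all 24. Nfkbia was -0.00059 without a filter on low counts, -0.18 without N2 and N3, and -0.13 to 0.34 with 1 library left out. Nfkbiz was 0.023 and 0.026 with limma on log2(FPKM + 1) and log2(FPKM + 0.1), 0.21 with the neutrophil covariate, 0.58 without N1 and N4, and -0.32 to 0.24 with 1 library left out. Bcl3 was 0.071 without N1 and N4, and Birc3 -0.013 without N2 and N3. The cause was not tested. Over all genes, edgeR called 0, DESeq2 85, limma on either FPKM scale 1, and edgeR 27 without N1 and N4 and 375 without N2 and N3. With 1 library left out it called 0 to 10 genes, 10 without M1 and 3 without N4. The number of the 10 genes whose groups did not overlap was 0, and 0 to 1 with 1 library left out, the 1 being Nfkb2 without N4, where 7.14% of all genes did not overlap. It was 3 without N1 and N4, namely Nfkb1, Nfkb2 and Birc3, where 15.6% of all genes did not overlap. Without N2 and N3 it was 0, where 16.8% of all genes did not overlap. The number at an unadjusted p under 0.05, 1 with all libraries, was 0 to 3 with 1 library left out. The 3 arose without N4, where 14.3% of all genes were at that level. This number was 4 without N1 and N4, where 17.2% of all genes were at that level. It was 2 without N2 and N3, where 18.1% were. M and N share replicate numbers 1 to 4, and whether these pair the libraries cannot be decided from 4 correlations. Deviations of same-numbered libraries correlated at -0.07 to 0.34, over 0.1 in 1 of 4 pairs, that of M4 and N4. Of 4 M libraries, 1 correlated best with its own number. With the number as a replicate block, edgeR called 0 genes and 0 of the 10, and the Tnfaip3 difference was 0.31, against 0.32 for the same 8 libraries without a block. The lowest count of these genes in any library was 591, and the part of depth in the comparison was not tested.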

Other observations

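Within a library, the ratio of 2 genes does not depend on scaling. The ratio of Tnfaip3 to Nfkb1 in FPKM was 3.77 to 5.85 in M libraries, with a median of 4.88, against 3.65, 4.16, 4.28 and 3.97 in N1 to N4. It exceeded the highest N library in 4 of 6 M libraries, M1, M4, M5 and M6. The ratio of Nfkbia to Nfkb1 was 5.88 to 7.81 in M libraries, with a median of 6.99, against 5.71, 4.94, 7.57 and 10.7 in N1 to N4. The highest and the lowest value both belonged to N libraries. These ratios were chosen after the values were seen and have no test.

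Immediate early genes, transcription factor and phosphatase genes switched on within minutes of a stimulus, were also measured. Their summed level was 3183 to 3869.96 CPM in M libraries, against 3201, 3100.2, 3836 and 4763 CPM in N1 to N4, and N4 was highest on both. Of 20 such genes, 15 had differences below 0, where 45.3% of all genes did, with a median of -0.16. By edgeR or DESeq2, 0 were called. Egr1, an early zinc finger factor, ranged from 15.6 to 28.5 CPM in M libraries, against 19.2, 14.9, 41.1 and 95.6 CPM in N1 to N4. The mean log2 level of the list had r = 0.79 with Nfkbia (permutation p = 0.0068, adjusted p = 0.055, and rho = 0.81, permutation p = 0.0074, adjusted p = 0.11, over 10 libraries). Without M4 and N4 r was 0.46, and the relation did not pass the adjusted threshold with all libraries either.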
